A study of Mus musculus with 7 samples.

Results

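The 8 genes described here encode the TET dioxygenases and proteins that act with them in active DNA demethylation. They were taken by symbol (Tet1, Tet2, Tet3, Tdg, Ogt, Gadd45a, Gadd45b and Gadd45g) from a count table of 55484 genes, and all 8 had enough counts to be tested. The table held 4 libraries of MEFs, fibroblasts grown from mouse embryos, and 3 libraries of mESCs, pluripotent stem cells of the early mouse embryo. Both cell types were of C57/Bl6 background and the labels name no treatment. For the chromatin libraries of the study, fibroblasts were sorted as THY1+ and stem cells as THY1-/SSEA1+/EPCAM+, and whether the RNA libraries came from the same sort is not stated. The RNA libraries were primed at the poly(A) tail, carried unique molecular identifiers and are read mainly near the 3' end of each transcript.

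TET enzymes oxidize methylated cytosine to hydroxymethylcytosine and further to formyl- and carboxylcytosine. Thymine DNA glycosylase, encoded by Tdg, cuts out the last pair of these bases, and base excision repair puts an unmodified cytosine in their place. OGT attaches N-acetylglucosamine to proteins and binds TET enzymes, while the small GADD45 proteins are stress-induced adaptors without known enzyme activity that have been proposed to bring repair factors to methylated DNA. In pluripotent cells TET1 and TET2 are known as the main TET enzymes, while TET3 is best known from the oocyte and from differentiating cells.

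The libraries held 6528643 to 11441278 counts, and each is named by its cell type and the first 3 digits of its total, so that MEF 11.4 is the MEF library of 11441278 counts. Levels are in CPM, counts scaled to a common library size, with sizes taken from edgeR's TMM method. The floor was set at 3 counts, for counting error only. It corresponded to 0.262 to 0.460 CPM over the library totals, without TMM scaling. The summed level of 11 pluripotency markers was 44.1 to 47.7 CPM in MEFs and 3245 to 3586 CPM in mESCs, and that of 11 fibroblast markers was 25669 to 41668 CPM in MEFs and 373 to 428 CPM in mESCs. Of these, 10 pluripotency markers were higher and 11 fibroblast markers lower in mESCs by edgeR's test, while Fut4 had too few counts to be tested. Extraction notes attached to the samples speak of young and aged blood stem cells, and the names of the count columns hold an unexplained letter, O in MEFs and Y in mESCs, so that whatever it marks cannot be told apart from cell type. Of 6 blood markers, 3 were tested, with Kit higher and Cd53 and Hba-a1 lower in mESCs. The summed level of all 6 was 8.69 to 16.7 CPM in MEFs and 30.4 to 34.7 CPM in mESCs. In mESCs most of this sum was Kit, with 29.5 to 33.9 CPM. The pan-leukocyte gene Ptprc, which defines blood cells, had 1 to 17 counts in MEF libraries and at most 1 in mESC libraries. Of 4 neural markers, 2 were higher and 2 lower in mESCs (summed level 92.6 to 136 CPM in MEFs and 44.2 to 45.8 CPM in mESCs). Of 5 endoderm and trophoblast markers, Gata6 alone was tested and it did not pass (summed level 25.8 to 36.7 CPM in MEFs and 12.2 to 34.5 CPM in mESCs). Sox17 and Foxa2 had 0 counts in every MEF library. In mESC libraries Sox17 had 9 to 51 counts and Foxa2 4 to 21. The part of these cell types in the results was not tested. In bulk RNA, fewer cells of a type and less RNA per cell cannot be told apart.

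The promoter windows below show the 3 TET paralogs, whose levels moved in opposite directions, and the 2 GADD45 genes that differed most from each other between the cell types. Each runs from 250 bases before to 50 after the RefSeq start on GRCm38.p6, read along the gene's own strand from 5' to 3'. Capitals mark matches on either strand to the octamer ATGCAAAT (bound by POU domain factors), the CCAAT box CCAAT, the TATA box TATAAA, the GC box GGGCGG and the E-box CACGTG. The windows lie at chr10:62887275-62887574 on the minus strand (Tet1), chr3:133544341-133544640 on the minus strand (Tet2), chr6:83441629-83441928 on the minus strand (Tet3), chr6:67037358-67037657 on the minus strand (Gadd45a) and chr13:51846425-51846724 on the plus strand (Gadd45g).
Tet1: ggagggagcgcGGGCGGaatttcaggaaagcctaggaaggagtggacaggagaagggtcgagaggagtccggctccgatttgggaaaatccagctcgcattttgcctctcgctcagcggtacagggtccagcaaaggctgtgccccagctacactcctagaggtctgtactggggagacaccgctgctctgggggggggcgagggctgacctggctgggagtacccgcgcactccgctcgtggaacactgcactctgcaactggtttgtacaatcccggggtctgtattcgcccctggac
Tet2: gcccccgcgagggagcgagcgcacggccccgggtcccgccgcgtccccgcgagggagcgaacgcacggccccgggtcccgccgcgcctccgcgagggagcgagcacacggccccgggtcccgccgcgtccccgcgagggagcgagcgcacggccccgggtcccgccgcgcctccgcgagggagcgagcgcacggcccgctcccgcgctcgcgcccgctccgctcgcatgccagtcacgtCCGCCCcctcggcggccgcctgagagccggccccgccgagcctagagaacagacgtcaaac
Tet3: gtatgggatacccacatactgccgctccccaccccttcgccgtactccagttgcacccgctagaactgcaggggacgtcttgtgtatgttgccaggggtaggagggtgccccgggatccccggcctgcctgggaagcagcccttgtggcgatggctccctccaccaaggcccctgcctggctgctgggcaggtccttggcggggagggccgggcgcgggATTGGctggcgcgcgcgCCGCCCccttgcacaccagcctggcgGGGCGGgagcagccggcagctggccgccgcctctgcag
Gadd45a: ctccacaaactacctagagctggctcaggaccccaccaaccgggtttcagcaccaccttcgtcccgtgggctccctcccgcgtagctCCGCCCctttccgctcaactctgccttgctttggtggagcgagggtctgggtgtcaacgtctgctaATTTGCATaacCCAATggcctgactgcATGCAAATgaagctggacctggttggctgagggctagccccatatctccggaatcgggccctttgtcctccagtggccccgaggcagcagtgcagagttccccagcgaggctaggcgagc
Gadd45g: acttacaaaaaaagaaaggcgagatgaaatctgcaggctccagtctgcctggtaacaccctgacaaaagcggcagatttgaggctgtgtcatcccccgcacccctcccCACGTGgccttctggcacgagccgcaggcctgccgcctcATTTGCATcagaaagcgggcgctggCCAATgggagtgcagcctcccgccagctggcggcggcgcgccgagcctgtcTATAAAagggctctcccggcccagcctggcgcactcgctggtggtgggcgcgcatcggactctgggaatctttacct

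The octamer, found in 1.74% of 32851 RefSeq promoters of the same length, occurred among the 8 genes in Gadd45a and in Gadd45g. Gadd45a held it at -97 on the opposite strand and at -70 on its own, with a CCAAT box between them at -86. Gadd45g held it at -103 on the opposite strand, with a CCAAT box at -78 and a TATA box at -27, and of these 2 genes Gadd45g was lower in mESCs while Gadd45a did not pass the test. CCAAT occurs in 37.4% of all promoters, TATAAA in 13.6%, GGGCGG in 35.7% and CACGTG in 7.15%. The Tet2 window was rich in CpG, with 57 CpG dinucleotides, more than in 99.8% of promoters, against 17 in Tet1, 22 in Tet3 and a median of 7 in all promoters. The RefSeq starts of Tet1 and Tet3 lie 21672 and 17406 bases downstream of the most upstream 5' end in GENCODE M21, and counts from the 3' end do not tell which start was used. A match is a description of the letters, not a site.

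Tet1 was higher in mESCs than in MEFs by 16.2-fold, Tet2 by 6.43-fold, and Tet3 was higher in MEFs by 3.71-fold, each without overlap between the libraries of the cell types. Tet1 (ENSMUSG00000047146.17, chromosome 10 of GRCm38, 62804570 to 62908996, minus strand), which oxidizes methylated cytosine and binds CpG-rich DNA through its own CXXC domain, had 66.9, 45.1, 77.7 and 60.0 CPM in MEF 11.4, 7.31, 9.18 and 6.53. In mESC 8.19, 8.06 and 7.46 it had 961, 1125 and 955 CPM. The lowest mESC library was thus far above the highest MEF library, and the 296 to 697 counts in MEF libraries were well above the floor, so Tet1 was low but detected in MEFs. The means were 62.4 ± 13.6 CPM in MEFs (SD, n = 4) and 1013 ± 96.5 CPM in mESCs (SD, n = 3), and the fitted log2 fold change was 4.02 ± 0.187 (SE), with an adjusted p of 7.87e-08. All adjusted p-values of fold changes come from the quasi-likelihood test of edgeR, with adjustment by Benjamini and Hochberg over all genes tested. Among the 16580 genes tested, 558 (3.37%) had a larger fitted log2 fold change.

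Tet2 (ENSMUSG00000040943.12, chromosome 3, 133463679 to 133545139, minus strand) encodes the paralog that lacks a CXXC domain of its own. It had 30.5, 16.8, 30.6 and 29.9 CPM in MEF 11.4, 7.31, 9.18 and 6.53, and 158, 236 and 127 CPM in mESC 8.19, 8.06 and 7.46. MEF 7.31 was lowest and mESC 8.06 highest. The fitted log2 fold change was 2.69 ± 0.264 (SE; adjusted p = 1.46e-05, edgeR), from 26.9 ± 6.78 CPM (SD, n = 4) to 174 ± 56.2 CPM (SD, n = 3).

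Tet3 (ENSMUSG00000034832.15, chromosome 6, 83362373 to 83459084, minus strand), known for oxidizing the paternal genome in the zygote, went the other way. It had 63.6, 68.6, 63.6 and 64.1 CPM in MEF 11.4, 7.31, 9.18 and 6.53, and 13.9, 24.3 and 14.4 CPM in mESC 8.19, 8.06 and 7.46. The MEF libraries lay close together, and mESC 8.06 stood above the other mESC libraries, as it did for Tet2. From 65.0 ± 2.42 CPM in MEFs (SD, n = 4) the level fell to 17.5 ± 5.88 CPM in mESCs (SD, n = 3), and the fitted log2 fold change was -1.89 ± 0.224 (SE; adjusted p = 5.50e-05, edgeR). With 122 to 214 counts, Tet3 was well above the floor in every mESC library. Less than 1% of the 50-base sequences of each TET gene occur in another annotated gene, and 43 exon bases of Tet2 overlap the antisense gene Gm42567.

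**Figure D1:**
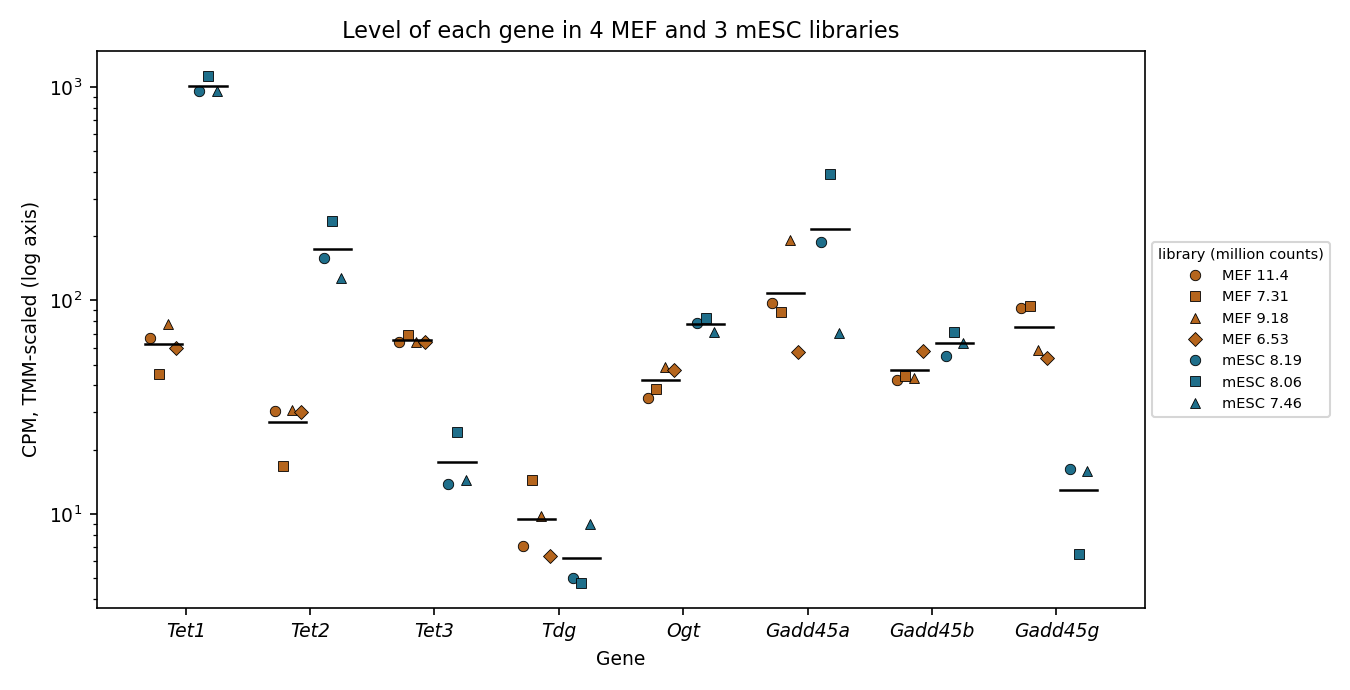
Levels of the 8 genes in CPM with TMM-scaled library sizes (log axis), with one point per library, MEFs in orange, mESCs in blue, marker shapes for libraries and black lines at the mean of each cell type. Tet1 and Tet2 lie higher and Tet3 and Gadd45g lower in all mESC libraries than in each MEF library, while the libraries of Tdg, Gadd45a and Gadd45b overlap.

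The balance between the paralogs was compared within each library, where depth and gene length cancel in the difference between cell types. Tet1 made up 34.6% to 45.2% of TET counts in MEF libraries (mean 40.1% ± 4.46, SD, n = 4) and 81.2% to 87.1% in mESC libraries (84.4% ± 2.98, SD, n = 3). Tet3 went from 37.0% to 52.6% in MEF libraries down to 1.23% to 1.76% in mESC libraries. The share of Tet2 overlapped between the cell types, with 12.9% to 19.4% in MEF and 11.6% to 17.0% in mESC libraries, although its level was higher in mESCs. The TET counts summed to 154 ± 17.5 CPM in MEFs (SD, n = 4) and 1205 ± 157 CPM in mESCs (SD, n = 3). MEFs thus divided a small TET pool mainly between Tet1 and Tet3, while Tet1 made up most of a larger pool in mESCs. These shares are of counts and so weigh the paralogs by counts, not by protein.

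On the log2 scale, the ratio of Tet1 to Tet3 was -0.09 ± 0.379 in MEFs (SD, n = 4) and 5.89 ± 0.318 in mESCs (SD, n = 3), a difference of 5.98. That of Tet2 to Tet3 moved by 4.62, from -1.31 ± 0.479 to 3.30 ± 0.186, and that of Tet1 to Tet2 by 1.36, from 1.23 ± 0.194 to 2.59 ± 0.329. No MEF library reached the lowest mESC library in any of the 3 ratios. Whether these ratios pass a threshold of 0.05 depends on how a two-sided p is counted. The exact permutation test enumerated all 35 splits into 4 and 3 libraries. In it, each of the 3 had an exact p = 0.0286 when splits with an absolute difference at least as large were counted, the smallest p this design allows (0.0343 with Benjamini-Hochberg adjustment over the 6 ratios computed). When the smaller tail of the same exact permutation test was doubled, p was 0.0571. The doubled tail was computed first, and the count by absolute difference was adopted after its result was seen.

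**Figure D2:**
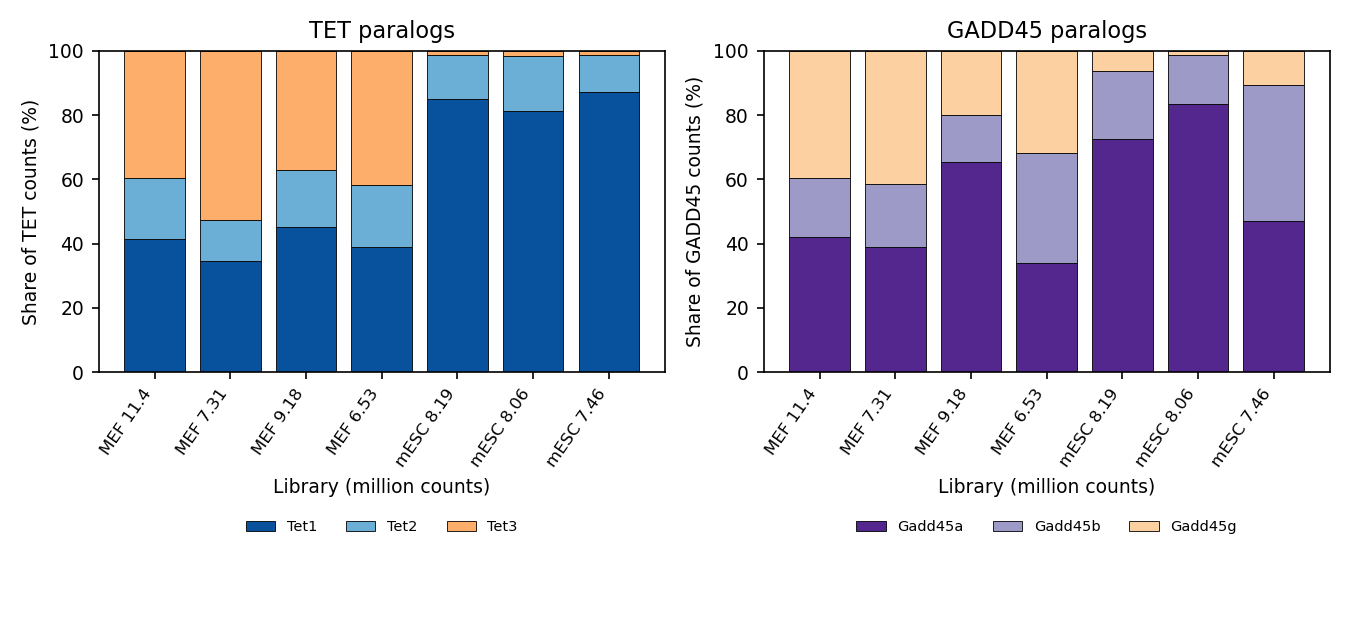
Share of each paralog in the counts of its family, in percent, with one stacked bar per library, for the TET genes (left) and the GADD45 genes (right). Tet3 holds 37.0% to 52.6% of TET counts in MEF bars and 1.23% to 1.76% in mESC bars, and Gadd45g holds 20.0% to 41.5% of GADD45 counts in MEF bars and 1.38% to 10.6% in mESC bars.

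Ogt, the X-linked gene of the enzyme that modifies and binds TET proteins, was 1.82-fold higher in mESCs. Ogt (ENSMUSG00000034160.13, chromosome X, 101640060 to 101684351, plus strand) had 35.02, 38.6, 49.0 and 47.4 CPM in MEF 11.4, 7.31, 9.18 and 6.53, and 78.0, 82.7 and 71.5 CPM in mESC 8.19, 8.06 and 7.46. Every mESC library was above every MEF library. The fitted log2 fold change was 0.87 ± 0.170 (SE; adjusted p = 0.00167, edgeR), from 42.5 ± 6.78 CPM (SD, n = 4) to 77.4 ± 5.64 CPM (SD, n = 3). In a test against a fold change of 2, Ogt did not pass (adjusted p = 0.972, edgeR). Of 578 X-linked genes tested, 111 (19.2%) were higher in mESCs and 185 lower, with a median log2 fold change of -0.15 against 0.04 for all genes. Among all genes tested, 22.8% were higher and 25.0% lower. The libraries were not alike in sex-linked RNA. The Y-linked genes Ddx3y, Eif2s3y and Kdm5d had 12.1 to 52.4 CPM in MEF 9.18 and MEF 6.53 and at most 1.53 CPM in MEF 11.4 and MEF 7.31. In mESC 7.46 they had 6.72, 27.7 and 1.42 CPM, and in the other mESC libraries at most 1.14 CPM. Uty, also Y-linked, had 7.84 to 16.2 CPM in every library. Xist, the RNA that coats the inactive X, had 43.3 to 73.8 CPM in MEFs and 12.3 to 14.6 CPM in mESCs. The MEF libraries with high Ddx3y were those with the higher Ogt, and mESC 7.46 was the mESC library with the lowest Ogt. The part of these differences in the Ogt result was not tested.

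Tdg, the glycosylase that removes oxidized cytosines, was the least counted of the 8 genes and did not pass the test. Tdg (ENSMUSG00000034674.18, chromosome 10, 82629828 to 82650799, plus strand) had 7.10, 14.5, 9.83 and 6.36 CPM in MEF 11.4, 7.31, 9.18 and 6.53, and 4.99, 4.77 and 8.97 CPM in mESC 8.19, 8.06 and 7.46. The cell types overlapped, from 40 to 95 counts in MEF and 42 to 76 in mESC libraries. The log2 fold change was -0.59 (95% interval -1.36 to 0.17, adjusted p = 0.240, edgeR). Of the 50-base sequences of its transcripts, 41.2% also occur in other genes, most of them in the processed pseudogene Tdg-ps (chromosome 15, 82516311 to 82519278), and reads that fit both places are not counted when mapping must be unique. Tdg-ps itself had 17 to 49 counts in MEF and 7 to 28 in mESC libraries (log2 fold change -1.06, adjusted p = 0.147, edgeR). Summed with Tdg, as chosen after seeing the data, the log2 fold change was -0.71 (adjusted p = 0.138, edgeR). A further 6.83% of the exon bases of Tdg overlap Glt8d2 on the opposite strand, and the strand setting of the counting is not stated, so the level of Tdg is uncertain.

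Of the GADD45 genes, Gadd45g was 5.80-fold higher in MEFs, while Gadd45a and Gadd45b did not pass the test. Gadd45g (ENSMUSG00000021453.2, chromosome 13, 51846678 to 51848468, plus strand), a growth arrest gene of differentiating cells, had 92.1, 94.4, 58.8 and 53.8 CPM in MEF 11.4, 7.31, 9.18 and 6.53. In mESC 8.19, 8.06 and 7.46 it had 16.3, 6.48 and 15.9 CPM. The MEF libraries formed a higher pair, MEF 11.4 and 7.31, and a lower pair, MEF 9.18 and 6.53. The lower pair held the MEF libraries with high Ddx3y, Eif2s3y and Kdm5d, and the part of that difference in the Gadd45g level was not tested. Of all libraries mESC 8.06 was lowest, from 57 counts. The fitted log2 fold change was -2.54 ± 0.349 (SE; adjusted p = 0.000159, edgeR), from 74.8 ± 21.4 CPM (SD, n = 4) to 12.9 ± 5.55 CPM (SD, n = 3).

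Gadd45a (ENSMUSG00000036390.8, chromosome 6, 67035096 to 67037457, minus strand), a p53 target induced by DNA damage, was the most variable of the 8 genes. It had 97.6, 88.6, 192 and 57.1 CPM in MEF 11.4, 7.31, 9.18 and 6.53, and 187, 391 and 70.4 CPM in mESC 8.19, 8.06 and 7.46. MEF 9.18 was above all but mESC 8.06, and mESC 7.46 was below all MEF libraries but MEF 6.53. The fitted log2 fold change of 0.99 had a standard error of 0.508 and a 95% interval of -0.01 to 1.99 (adjusted p = 0.135, edgeR). Without MEF 9.18 the log2 fold change was 1.41 (adjusted p = 0.0457, edgeR), without mESC 7.46 it was 1.40 (adjusted p = 0.0227, edgeR), and without mESC 8.06 it was 0.24. Its exons overlap the antisense gene E230016M11Rik in 19.1% of their bases, and this gene had 8 to 21 counts per library.

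Gadd45b (ENSMUSG00000015312.9, chromosome 10, 80930073 to 80932204, plus strand), induced by growth factors and inflammatory signals, had 42.5, 44.4, 43.1 and 58.0 CPM in MEF 11.4, 7.31, 9.18 and 6.53. In mESC 8.19, 8.06 and 7.46 it had 54.9, 70.8 and 63.5 CPM. Only MEF 6.53 reached into the mESC range. The log2 fold change was 0.42 (95% interval 0.08 to 0.77 before adjustment, adjusted p = 0.0681, edgeR), and without MEF 6.53 it was 0.53 (adjusted p = 0.0260, edgeR).

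In share of GADD45 counts, Gadd45g went from 33.3% ± 9.78 (SD, 4 MEF libraries) to 6.10% ± 4.63 (SD, 3 mESC libraries), and Gadd45a from 45.0% ± 13.9 to 67.6% ± 18.7, with overlap between the libraries for Gadd45a alone of these 2. On the log2 scale the ratio of Gadd45a to Gadd45g differed by 3.41 between the cell types and that of Gadd45b to Gadd45g by 3.03, each with p = 0.0286 by the exact permutation test on absolute differences (adjusted 0.0343) and p = 0.0571 with the smaller tail doubled. The difference for Gadd45a to Gadd45g was 2.38 without mESC 8.06 and 4.27 without mESC 7.46. The ratio of Gadd45a to Gadd45b differed by 0.38 (p = 0.6, exact permutation test, two-sided). Without mESC 8.06 that ratio went the other way, by -0.12. Summed GADD45 levels of 231 ± 51.1 CPM in MEFs (SD, n = 4) and 292 ± 162 CPM in mESCs (SD, n = 3) overlapped, so the pool was not separated while the part of Gadd45g was.

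**Figure D3:**
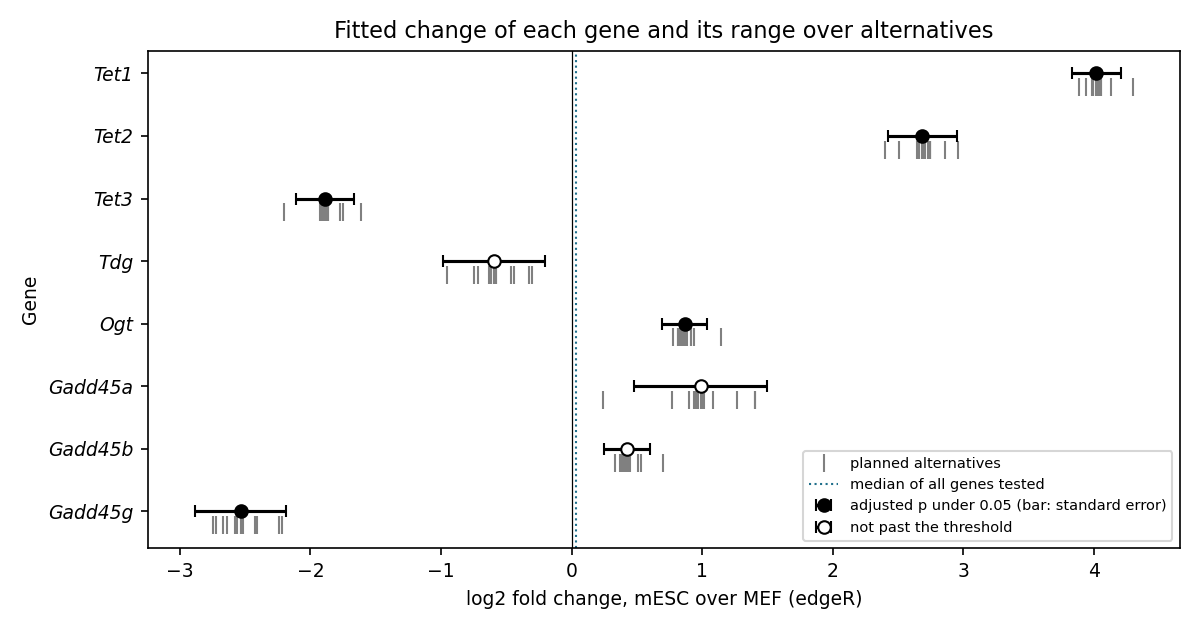
Fitted log2 fold change of each gene, mESC over MEF (edgeR), as a circle with its standard error, filled where the adjusted p was under 0.05, with grey ticks below for each other setting tried and a dotted line at the median of all genes tested, 0.04. Tet1, Tet2, Tet3 and Gadd45g stay on their side of 0 and far from it under each of these settings, while the ticks of Gadd45a run from 0.24 to 1.41.

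Of the 8 genes, 3 (Tet1, Tet2 and Ogt) were higher in mESCs, where 22.8% of the 16580 genes tested were, and 2 (Tet3 and Gadd45g) were lower, where 25.0% were. In either direction 47.9% of all genes tested were called, so 5 of 8 is close to the background and says nothing particular about these genes as a group. Libraries of MEFs and mESCs were without overlap for 5 of the 8 genes and for 52.1% of all genes tested. TMM scaling lowered the median over all genes, on the log2 fold change scale, by 0.28, from 0.32 to 0.04. With library size alone, 5 of the 8 genes were higher in mESCs, since Gadd45a (log2 fold change 1.27, adjusted p = 0.0495, edgeR) and Gadd45b (0.70, adjusted p = 0.00838, edgeR) then passed, and the 2 lower genes were still called.

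Levels of different genes were set side by side per kilobase of annotated exon. Libraries read from the 3' end do not gain counts with length in the way that whole-transcript libraries do. Division by length can therefore place the long TET genes (15457 to 16870 exon bases) too low beside the short GADD45 genes (1173 to 1764). This order is thus not one of transcript number, and the order in CPM is given after it. In MEFs the order in CPM per kilobase was Gadd45g with 63.7 ± 18.3, Gadd45a with 61.7 ± 32.9, Gadd45b with 29.6 ± 4.66, Ogt with 5.28 ± 0.842, Tet1 with 4.04 ± 0.882, Tet3 with 3.89 ± 0.145, Tdg with 1.76 ± 0.684 and Tet2 with 1.60 ± 0.402 (SD, n = 4). Gadd45g and Gadd45a, Gadd45a and Gadd45b, Ogt and Tet1, Tet1 and Tet3, and Tdg and Tet2 lay closer to each other than the sum of their SDs. In mESCs the order was Gadd45a with 123 ± 92.1, Tet1 with 65.6 ± 6.24, Gadd45b with 39.7 ± 4.99, Gadd45g with 10.99 ± 4.74, Tet2 with 10.3 ± 3.33, Ogt with 9.62 ± 0.700, Tdg with 1.16 ± 0.440 and Tet3 with 1.05 ± 0.352 CPM per kilobase (SD, n = 3). There Gadd45a and both Tet1 and Gadd45b, the trio of Gadd45g, Tet2 and Ogt, and Tdg and Tet3 were this close. Per kilobase, Tet1 was near Tet3 in MEFs and above Gadd45b in mESCs. In CPM the MEF means were Gadd45a 109, Gadd45g 74.8, Tet3 65.0, Tet1 62.4, Gadd45b 47.0, Ogt 42.5, Tet2 26.9 and Tdg 9.44. The mESC means were Tet1 1013, Gadd45a 216, Tet2 174, Ogt 77.4, Gadd45b 63.1, Tet3 17.5, Gadd45g 12.9 and Tdg 6.24. Without division by length, Tet1 was thus above Gadd45b in both cell types, and its place below Gadd45b per kilobase in MEFs comes from the division. Per count, the log2 ratio of Tet1 to Tet3 in MEFs was -0.09 and per kilobase 0.03, so neither of this pair led in MEFs.

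Of 14 genes of the DNA glycosylase and cytidine deaminase families beside Tdg, 12 were tested, and 7 were higher in mESCs and 0 lower. The median log2 fold change of the 12 was 1.51 against 0.04 for all genes tested (edgeR). Of all genes tested, 22.8% were higher and 47.9% were called in either direction. The 5 others tested did not pass. Apobec2, of the cytidine deaminase family, had a log2 fold change of 4.39 and Neil2, a glycosylase for oxidized bases, one of 4.38, but both rest on few MEF counts, 0 to 4 for Apobec2 and 0 to 10 for Neil2. Without MEF 7.31 the value of Apobec2 was 5.05, and without MEF 11.4 that of Neil2 was 4.99. Ung, which removes uracil from DNA, rose from 11.3 ± 3.35 CPM (SD, n = 4) to 85.7 ± 6.21 CPM (SD, n = 3), 2.92 on the fitted log2 scale (adjusted p = 2.93e-06, edgeR). Of 13 genes that act after a glycosylase in base excision repair, 5 were higher and 0 lower, with a median of 0.40, beside the same 22.8% higher and 47.9% called in either direction among all genes. Parp1, the sensor of DNA breaks, had a log2 fold change of 2.13, Apex1, the endonuclease at abasic sites, one of 1.94, and Lig1, a DNA ligase that also joins Okazaki fragments, one of 1.51. The exons of Apex1 overlap another gene in 61.7% of their bases, and its counts are uncertain.

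Genes of the TET cofactors moved both ways. Among all genes tested, 22.8% were higher and 25.0% lower in mESCs. Of 12 genes of alpha-ketoglutarate and ascorbate supply, 4 were higher and 3 lower in mESCs (median log2 fold change 0.40), and 7 higher and 1 lower with library size alone. Without mESC 8.19, 3 were higher and 1 lower, and without mESC 7.46, 4 were higher and 1 lower. D2hgdh, which removes a hydroxyglutarate that inhibits TET enzymes, had a log2 fold change of 1.16, and Idh3g, a subunit of mitochondrial isocitrate dehydrogenase, one of 0.62. Idh1 and Idh2, which make alpha-ketoglutarate, were lower with -0.94 and -0.45, as was Ogdh, which consumes it, with -0.49 (adjusted p = 0.0478, edgeR). Of these, D2hgdh (adjusted p = 0.0459, edgeR) and Ogdh lay near the threshold and lost the call in 5 and 9 of 12 fits with another scaling, filter or tool or without 1 library. Idh2 lost it in 3 of them, without mESC 8.19, without mESC 7.46 and with library size alone, where it had -0.17. Of 14 TET partners and readers of hydroxymethylcytosine, 8 were higher and 5 lower (median 0.49), beside the same 22.8% and 25.0% of all genes. In place of 5, 3 of the 14 were lower with library size alone and without mESC 7.46. Wdr76 had a log2 fold change of 2.19, the ubiquitin ligase scaffold Cul4b 1.83 and its substrate receptor Dcaf1 1.61, while Cxxc4, which encodes the CXXC protein that partners TET2, fell by 3.66 on the log2 scale, from 14.0 ± 3.28 CPM (SD, n = 4) to 1.08 ± 0.964 CPM (SD, n = 3). It had 1 to 18 counts in mESC libraries, and without mESC 8.06 its log2 fold change was -4.48. Between mESC libraries Wdr76 varied from 47.5 to 164 CPM, and its log2 fold change was 1.69 to 2.53 over the 12 other fits. Cul4a had a log2 fold change of -1.04 and Mbd3, a subunit of the NuRD complex, one of -0.98. The paralogs Cul4a and Cul4b thus moved in opposite directions.

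Of 9 partners of GADD45 proteins, 4 were higher and 1 lower (median 0.23), beside 22.8% higher and 25.0% lower among all genes tested. Ccnb1, the mitotic cyclin, had a log2 fold change of 1.42, Pcna, the sliding clamp of replication, 0.99 and Map3k4, the kinase that GADD45 proteins activate, 0.82. The cell cycle inhibitor Cdkn1a was lower with -1.44. Among 16 stress-induced genes, 2 were higher and 4 lower (median log2 fold change -0.04), beside the same 22.8% and 25.0% of all genes. With library size alone, 5 of the 16 were higher and 4 lower (median 0.24). Without 1 library the median ran from -0.38 (without mESC 8.19) to 0.16 (without mESC 8.06), and 1 gene was higher in each such fit but that without MEF 6.53, where 2 were. Ppp1r15a, a phosphatase subunit of the stress response, had 0.62 (call lost in 7 of 12 such fits) and Trp53, the gene of p53, 0.61, while Plk2 fell by 3.84, Btg2 by 1.61 and Cdkn1a by 1.44 on the log2 scale. Cdkn1a is in both lists, and Pcna is in the lists of GADD45 partners and base excision repair.

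**Figure D4:**
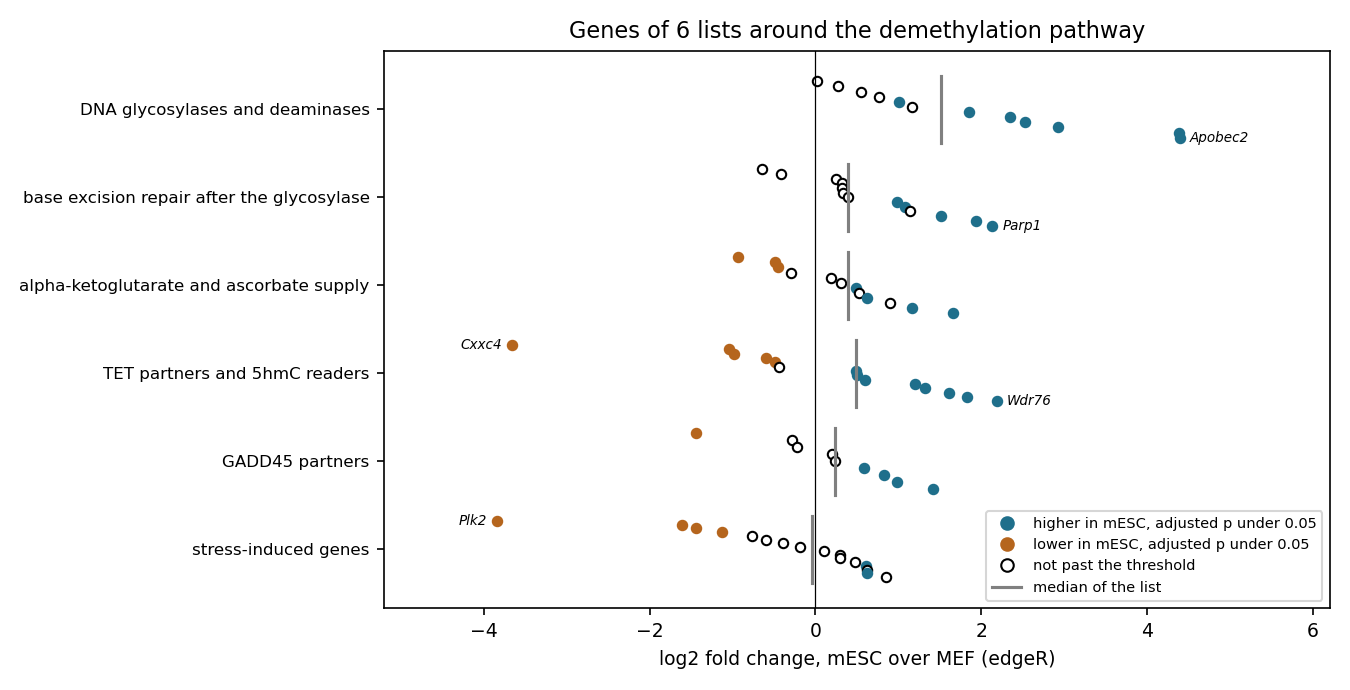
Fitted log2 fold change, mESC over MEF (edgeR), of the tested genes of 6 lists, one circle per gene, filled where the adjusted p was under 0.05 (blue higher, orange lower in mESCs), with a grey line at each list's median and names for the outermost genes. The glycosylases and deaminases have a median of 1.51 and no gene called lower, while the stress-induced genes have a median of -0.04.

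The genes most like Tet1 across the 7 libraries, by Pearson correlation of log2CPM, were Cobl (0.9990), AU018091 (0.9988) and Gm38979 (0.9985), and 177 genes had a correlation over 0.99 with it. For Tet2 they were Tasor (0.9954), Zfp518a (0.9945) and Snhg11 (0.9942), with 10 genes over 0.99. For Gadd45a they were Gm44187 (0.9830), Isoc2a (0.9820) and Pitpnc1 (0.9814), with 0 genes over 0.99. The libraries share cell type, so any pair of genes with a large difference between the cell types correlates, and these values only describe the 7 libraries.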

How the data were processed

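RNA-seq counts of 4 MEF and 3 mESC libraries were analysed. The authors demultiplexed the reads with Sabre, trimmed them with Cutadapt, aligned them to mm10 with STAR (version 2.4.2a per the submitters' processing notes), collapsed molecular identifiers with Je, used featureCounts for uniquely mapped reads on exons and deposited these counts raw, as whole numbers. The study's methods name a different STAR version for these libraries than the processing notes do. The annotation release and strand setting are not given in the sources used here. Column names give the cell type, not which sample of it, so libraries are named by their total. The study describes its transcriptional replicates as biological but gives fewer MEF replicates than the 4 libraries here, and the labels do not tie libraries to separate cultures, so p-values measure the spread between these samples, part of which may be technical. Of the 55484 rows, 26 had date-like symbols and stayed in the totals, and 0 sample columns were left unused.

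Cell types were compared in R 4.3.3 with edgeR 4.0.16, built on limma 3.58.1, over all 7 libraries without covariates, with TMM scaling, filterByExpr, the quasi-likelihood test and a Benjamini-Hochberg adjusted p threshold of 0.05 over 16580 genes. Standard errors and 95% intervals are of the fitted log2 fold change and are not adjusted. The standard errors were derived from the fold change and its test statistic. The intervals are a normal approximation from them and are narrower than the quasi-likelihood test implies. DESeq2 1.42.0 was an alternative, as were other scalings and filters, a test against a fold change of 2 and each library left out in turn. Ratios of paralogs were log2 values with 0.5 added to each count, compared by exact permutation, which for 4 and 3 libraries has 35 arrangements. The p of these ratios was first computed by doubling the smaller tail and was changed, after the values were seen, to the share of arrangements with an absolute difference at least as large, so both are printed. Scripts were tested on simulated data. Libraries of one cell type differed by more than sampling noise (chi-square per degree of freedom 18.1 to 38.0). This value was 18.3 between MEF 11.4 and 7.31 and 23.9 between MEF 9.18 and 6.53. Across these pairs it was 31.4 to 38.0, so the MEF libraries were split into pairs over all genes. The fits do not model this split and treat the MEF libraries as exchangeable.

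The 8 genes and the lists were chosen with earlier results of these data known. Named in each list are the 3 called genes with the largest log2 fold change in each direction and any gene at or under 3 counts in every library, of which the pathway lists had 0. One gene that this rule names is not reported here. The 3 genes most like Tet1, Tet2 and Gadd45a are named. Gene coordinates, exon lengths and 50-base sequences shared between transcripts are from GENCODE M21 on GRCm38, and promoters from RefSeq on GRCm38.p6, where all 8 genes matched.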

Additional observations from a re-analysis of the deposited data

Results flagged for a closer look

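In 5 of 14 sets of 4 MEF values examined, 1 library lay far from the others, by a gap to its nearest neighbour above Dixon's 95% critical value, where chance gives about 1 in 20. MEF 7.31 had the lowest Tet2 level, 16.8 CPM, against 29.9 to 30.6 CPM in the other MEF libraries, and the highest Tet3 level, 68.6 CPM, against 63.6 to 64.1 CPM. Its log2 ratio of Tet2 to Tet3 was therefore apart as well, at -2.03. The Tet3 gap is small in size, since the MEF libraries lay within 63.6 to 68.6 CPM. MEF 6.53 had the highest Gadd45b level, 58.0 CPM, against 42.5 to 44.4 CPM. MEF 9.18 had the highest log2 ratio of Gadd45a to Gadd45g, 1.71. It had the highest Gadd45a level among the MEF libraries, 192 CPM, with Gadd45g at 58.8 CPM. Gadd45g was higher in MEF 11.4 and MEF 7.31, with 92.1 and 94.4 CPM, and lower in MEF 6.53, with 53.8 CPM. These sets share libraries and genes, so the 5 are not independent of each other, and no cause was tested.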

How the results depend on the processing

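Tet1, Tet2, Tet3 and Gadd45g kept their direction and call in all 13 alternatives tried for each, with log2 fold changes of 3.89 to 4.30, 2.397 to 2.96, -2.20 to -1.61 and -2.74 to -2.22. Tdg was not called in any. A test against a fold change of 2 called 3991 genes in all and ended the call of Ogt. It left 2 genes called in base excision repair, 1 in alpha-ketoglutarate and ascorbate supply, 5 TET partners, 2 GADD45 partners and 3 stress-induced genes, by construction of a stricter test. With library size alone, 5 of the 8 genes were higher in mESCs and 8 base excision repair genes were called, and the share of all calls that were higher in mESCs was 60.8% (5180 against 3345), where TMM gave 47.7%. With no filter beyond 1 count, Gadd45a passed with 0.95 (adjusted p = 2.77e-06, edgeR). That fit also moved the adjusted p of other genes far from the main fit. By edgeR's test, Tet1 had 7.80e-116 in place of 7.87e-08, and Gadd45b 0.213 in place of 0.0681. The cause was not tested. Leaving out 1 library gave 4 to 6 genes called in alpha-ketoglutarate and ascorbate supply, lowest without mESC 8.19, against 7 with all libraries. It gave differences in log2 ratio of 1.203 to 1.53 for Tet1 to Tet2, 5.81 to 6.16 for Tet1 to Tet3, 4.38 to 4.70 for Tet2 to Tet3, -0.12 to 1.04 for Gadd45a to Gadd45b (negative without mESC 8.06), 2.38 to 4.27 for Gadd45a to Gadd45g and 2.51 to 3.35 for Gadd45b to Gadd45g. The exact permutation p cannot pass the threshold there, since its smallest value is 0.1 without a MEF and 0.0667 without an mESC library. Doubling the smaller tail leaves the differences of 1.36, 5.98, 4.62, 3.41 and 3.03 at p = 0.0571 in the exact permutation test, which also cannot pass, so the 5 ratios are past the threshold under only 1 of the 2 countings. Per kilobase, the MEF log2 ratio turned from -0.09 to 0.026 for Tet1 to Tet3 and from 0.45 to -0.14 for Gadd45a to Gadd45g, by the division by length. Of 26 genes named from the lists, 14 kept their call in all alternatives and 0 changed direction. No paired analysis was possible because column names show only a cell type and do not say which numbered sample each library is. Depth limits Tdg, Apobec2, Neil2 and, in mESCs, Cxxc4, which have few counts.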
